A study of Mus musculus with 6 samples.

Results

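The genes described here are 10 genes of the unfolded protein response and the integrated stress response: Hspa5, Hsp90b1, Xbp1, Atf4, Atf3, Ddit3, Trib3, Chac1, Asns and Ddit4. The rule takes them by gene name, and they were read from a table of 55357 genes in which 11 entries carry these names, because Ddit3 is listed under 2 gene identifiers. All 10 genes passed the filter on low values (a mean of at least 10 normalized counts) in at least 1 entry. Gene expression was measured by RNA-seq in cultured cortical astrocytes of C57BL/6 mouse embryos. In the KE group, 3 samples had been transfected with a plasmid that expresses FLAG-tagged BRAF carrying K499E, a mutation associated with RASopathy, from the CMV promoter, which is not specific to a cell type. In the NT group, 3 samples had not been transfected by their titles and treatment labels, although the protocol text in the labels describes the transfection for all 6 samples. RNA was taken after 48 hours, with no sample that received an empty plasmid or wild-type BRAF, so transfection and the BRAF variant cannot be told apart in any difference below. The labels do not say that replicates came from separate cultures, so p-values measure only the spread between these samples, which may be technical.

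Values are normalized counts, that is gene counts divided by a size factor for each sample. Totals lay between 30472429 and 30895529 normalized counts, and the approximate depth between 24500000 and 34100000 reads, lowest in KE replicate 2. Braf itself was between 34933 and 40978 normalized counts in the KE samples and between 811 and 946 in the NT samples, which matches the labels. Of 8 astrocyte markers, 5 were higher and 1 was lower in KE, and their summed level was between 144899 and 146964 against 104788 to 109579. The highest of them, the glutamate transporter gene Slc1a3, had means of 47360 and 39859. All 10 markers of microglia and macrophages were lower in KE, with a summed level of 2429 to 3545 against 26333 to 30399, a difference of 10.3-fold, and C1qa, the highest over all 6 samples, had means of 829 and 6984. The 5 tested oligodendrocyte lineage markers were all lower as well, with sums of 7096 to 8314 against 11320 to 11972, led by Olig2, while Mog was at most 1.98 in any sample. Neuron marker sums were 5890 to 6149 against 7502 to 8168 (1 of 5 tested markers higher, 1 lower), with Rbfox3 at most 8.73. Map2, the highest, made up most of these sums and was called lower (means of 4965 in KE and 7077 in NT). Tubb3 was called higher (means of 806 in KE and 598 in NT), so the lower neuron sum rests on Map2. Sums of vascular and fibroblast markers overlapped, at 1107 to 1275 against 1193 to 1369 (1 of 5 tested markers higher, 2 lower), with Lum the highest over all 6 samples and Cldn5 at most 2.07. In such bulk samples, fewer cells of a type and less RNA per cell cannot be told apart, and the part of these shifts in the results below was not tested.

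The unfolded protein response begins at the endoplasmic reticulum (ER), where misfolded proteins engage the sensors IRE1, ATF6 and PERK. IRE1 splices the Xbp1 mRNA, cleaved ATF6 enters the nucleus, and together the resulting factors raise chaperone genes such as Hspa5 and Hsp90b1. PERK is also a kinase of the integrated stress response: it and the kinases PKR, GCN2 and HRI phosphorylate eIF2alpha, which lowers general translation and favours translation of the Atf4 mRNA. ATF4 then raises genes of amino acid supply, such as Asns, and the genes of ATF3 and CHOP (encoded by Ddit3), with which it shares further targets, among them Trib3, Chac1 and Ddit4.

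These branches read different sequence elements near gene starts. The ER stress response element (ERSE; searched as CCAAT, any 9 bases, then CCACG) is bound by ATF6 together with NF-Y, and the C/EBP-ATF response element (CARE; searched as TGATG, any 1 base, then AA) is bound by ATF4 with a C/EBP partner. Both strands were searched from 250 bases before to 50 bases after each RefSeq gene start (GRCm38.p6 promoters), and all 10 genes were found there, each at 1 place in GRCm39. ERSE occurred in 0.119% of the 32851 RefSeq promoters, and among the 10 genes in Hspa5 and Hsp90b1. CARE occurred in 3.97% of the promoters, and among the 10 genes in Atf3, Chac1, Trib3 and Asns. The cAMP response element (TGACG directly followed by TCA), occurred in 1.79% of the promoters and in 0 of these 10. No promoter of the 10 held more than 1 kind of element. A match describes letters only, not a bound site.

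The ERSE copies of the 2 ER chaperone genes are shown because these 2 genes carry the ER branch of the results. Each is written 5′ to 3′ on the strand of its gene, with the element in capitals. The printed stretch of Hspa5 is chr2:34662032-34662060 (GRCm39, plus strand), with the element 65 to 47 bases before the start. The stretches of Hsp90b1 are on the minus strand, the distal one chr10:86541482-86541540 (element 212 to 194 bases before the start) and the proximal one chr10:86541392-86541420 (element 107 to 89 bases before), whose element is read on the opposite strand. All 3 lie upstream of the canonical transcript, and those of Hspa5 and the proximal copy of Hsp90b1 overlap exons of other annotated transcripts.
Hspa5: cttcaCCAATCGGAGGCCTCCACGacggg
Hsp90b1 distal: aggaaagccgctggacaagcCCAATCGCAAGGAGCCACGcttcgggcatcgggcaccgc
Hsp90b1 proximal: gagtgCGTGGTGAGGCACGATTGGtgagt

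The CARE copies are shown because they lie in the RefSeq windows of 4 of the 7 genes that were higher in KE (Atf3, Chac1, Trib3 and Asns). The printed stretch of Atf3 is chr1:190915613-190915660 (minus strand, with the element 110 to 103 bases before the start), and that of Chac1 is chr2:119181519-119181548 (plus strand, element 193 to 186 before), which overlaps an exon of another annotated transcript. That of Asns is chr6:7693214-7693243 (minus strand, element 23 to 16 before the RefSeq start), and its element is inside an exon of the Gencode canonical transcript, since that transcript starts further upstream. Ddit3 had a CARE copy only when the window was set on the start of its Gencode canonical transcript, printed within chr10:127126341-127126388 (plus strand, element 199 to 192 before that start). The copies of Atf3, Chac1 and Ddit3 are read on the opposite strand and share the same 8 letters, and the Asns copy has the letters in the direction of the gene. The Trib3 copy lies after the start, within an exon, and is not printed.
Atf3: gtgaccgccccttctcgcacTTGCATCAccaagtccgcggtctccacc
Chac1: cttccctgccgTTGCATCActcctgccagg
Asns: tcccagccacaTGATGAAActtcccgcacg
Ddit3: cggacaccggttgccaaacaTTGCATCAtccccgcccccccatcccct

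Ddit3, Chac1, Trib3 and Atf3 were at 2.9- to 4.7-fold higher levels in BRAF KE–transfected astrocytes, Asns, Atf4 and Ddit4 were higher by smaller factors, Hsp90b1 was slightly lower, and Hspa5 and Xbp1 were not called. In limma's test across all 15280 tested genes, with Benjamini-Hochberg adjusted p under 0.05 as the threshold, 7 of the 10 were higher in KE (25.3% of all tested genes were) and 1 was lower (26.0% of all tested genes). So 8 of the 10 were called in either direction, against 51.3% of all tested genes. The KE and NT samples did not overlap for 9 of the 10 genes, and for 59.9% of all tested genes. The median log2 fold change (log2FC, KE over NT, on the log2(normalized count + 1) scale) was 0.62 over the 10 genes and 0.00 over all tested genes. The higher astrocyte sums and the lower microglial and oligodendrocyte lineage sums given above belong to the same contrast. So does the neuron sum, which was lower through Map2.

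**Figure D1:**
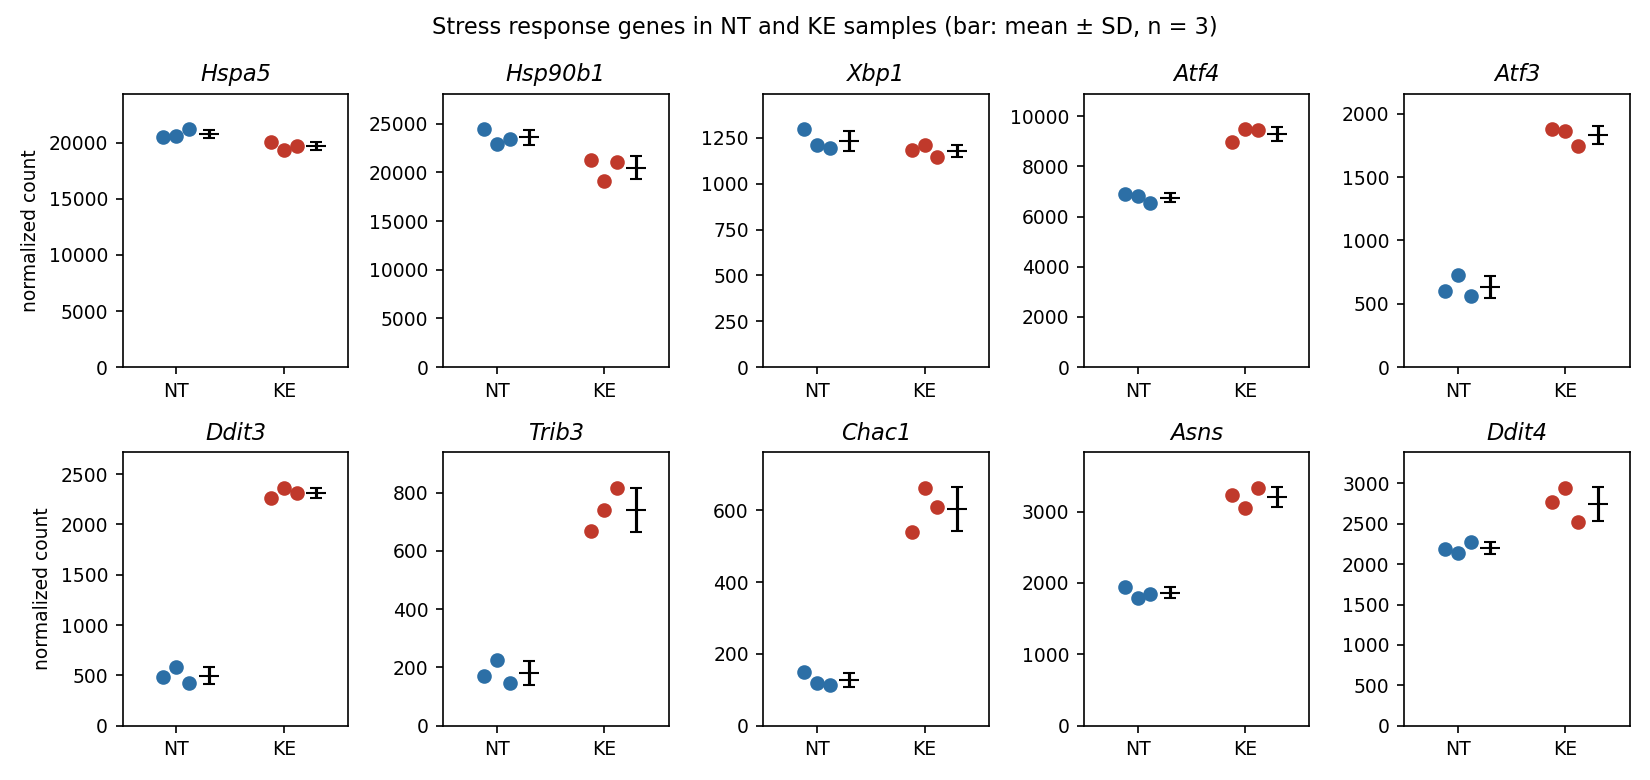
Normalized counts of the 10 genes (vertical axes, each from 0) in the 3 NT (blue) and 3 KE (red) samples, with the mean and SD of each group as black bars. The KE points lie above the NT points for Atf4, Atf3, Ddit3, Trib3, Chac1, Asns and Ddit4, below them for Hspa5 and Hsp90b1, and overlap them for Xbp1.

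The ER chaperones come first. Hspa5 (ENSMUSG00000026864; chr2:34661982-34668880, plus strand) encodes BiP, the Hsp70 chaperone of the ER that also holds the stress sensors inactive. Its normalized counts were 20076, 19393 and 19700 in KE replicates 1 to 3 and 20530, 20578 and 21210 in NT replicates 1 to 3. The KE samples lay just below the NT samples without overlap, with means of 19723 ± 342 and 20773 ± 379 (SD, n = 3 each). The log2FC was -0.07 (SE 0.05; limma, adjusted p = 0.252), and its 95% interval ran from -0.19 to 0.04, that is from 0.877- to 1.03-fold. A rise of Hspa5 beyond 1.03-fold thus lay outside the interval. Under quantile normalization, Hspa5 had a log2FC of -0.17 and was called lower (limma, adjusted p = 0.0122).

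Hsp90b1 (ENSMUSG00000020048; chr10:86526073-86541446, minus strand) encodes GRP94, the Hsp90 chaperone of the ER. Its normalized counts were 21314, 19105 and 21046 in KE and 24441, 22944 and 23390 in NT. All 3 KE samples were below all 3 NT samples, with means of 20488 ± 1206 and 23592 ± 769 (SD, n = 3 each), and the lowest was KE replicate 2, the shallowest library. Hsp90b1 fell by 0.20 on the log2 scale (SE 0.06; limma, adjusted p = 0.0165), to 0.868-fold. The call was lost without KE replicate 2 (log2FC -0.16, adjusted p = 0.0617 by limma), without NT replicate 1 (-0.18, adjusted p = 0.0556) and with no variance trend (adjusted p = 0.0529). Per kilobase of the canonical transcript, Hsp90b1 had the highest level of the 10 genes (7240 normalized counts per kilobase in KE and 8336 in NT) and Hspa5 was also among the 3 highest (3982 and 4194).

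The transcription factors are all of the bZIP class, and they moved by very different amounts. Xbp1 (ENSMUSG00000020484; chr11:5470606-5483027, plus strand) encodes the factor that IRE1 activates by splicing its mRNA, a step that a count per gene does not read. Its normalized counts were 1185, 1210 and 1145 in KE and 1297, 1214 and 1192 in NT. The groups overlapped, with means of 1180 ± 32.6 and 1234 ± 55.4 (SD, n = 3 each) and a log2FC of -0.06 (95% interval -0.21 to 0.08; limma, adjusted p = 0.441). That interval corresponds to 0.865- to 1.06-fold.

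Atf4 (ENSMUSG00000042406; chr15:80139372-80141745, plus strand) encodes the central factor of the integrated stress response, whose amount is set largely by translation, which was not measured here. Normalized counts of Atf4 were 8954, 9478 and 9428 in KE and 6894, 6821 and 6543 in NT. The 3 KE values lay close together and above every NT value, with means of 9287 ± 289 and 6753 ± 185 (SD, n = 3 each). Atf4 mRNA was 1.38-fold higher in KE (log2FC 0.46, SE 0.05; limma, adjusted p = 3.3e-05).

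Atf3 (ENSMUSG00000026628; chr1:190902493-190950241, minus strand) encodes an early stress factor that ATF4 raises, and that many other signals raise too. KE samples had 1878, 1867 and 1747 normalized counts of Atf3, and NT samples had 603, 726 and 561. The lowest KE sample was 2.41 times the highest NT sample, and the means were 1831 ± 72.5 and 630 ± 85.6 (SD, n = 3 each). The log2FC of Atf3 was 1.55 (SE 0.09; limma, adjusted p = 2.4e-07), or 2.92-fold.

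Ddit3 (ENSMUSG00000025408; chr10:127124268-127132163, plus strand) encodes CHOP, the factor through which long ER stress favours cell death. The 3 KE samples had 2261, 2366 and 2309 normalized counts, and the 3 NT samples had 484, 585 and 422. The lowest KE sample was 3.86 times the highest NT sample. Means were 2312 ± 52.6 and 497 ± 82.6 (SD, n = 3 each), so the relative spread was smaller in KE (coefficient of variation 2.28%) than in NT (16.6%). Ddit3 was 4.69-fold higher in KE (log2FC 2.23, SE 0.10; limma, adjusted p = 4.1e-08), and 0.969% of tested genes had a larger log2FC. A second Ddit3 entry (ENSMUSG00000116429), whose 2925 bases lie within the first on the same strand, was listed at 0 in all 6 samples. On the same strand, Ddit3 also overlaps Gm20492 by 1355 bases and Gm66222 by 505, and Hsp90b1 overlaps Gm15344 by 977 and Gm54730 by 133. A stranded library does not separate these. On the opposite strand, Ddit3 overlaps Mars1 by 3820 bases, Gm4189 by 2334 and Mbd6 by 669. The library kit keeps the strand, but the strand setting of the counting was not given in the sources used here, and Mars1 had means of 3348 and 3359 and was not called. The same limit holds for other genes of the 10 whose spans overlap a gene on the opposite strand: Xbp1 with Ccdc117 (12422 bases, all of Xbp1), Hspa5 with Rabepk (5980 bases), Hsp90b1 with Gm66230 (4851 bases), Trib3 with Gm14164 (4441 bases), Asns with 1700012J15Rik (35486 bases) and Atf3 with Gm55866 (108 bases).

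The 4 targets of ATF4 and CHOP among the 10 genes were all higher in KE. Trib3 (ENSMUSG00000032715; chr2:152179337-152191958, minus strand) encodes a pseudokinase that binds AKT and feeds back on ATF4 and CHOP. Its normalized counts were 667, 739 and 817 in KE and 171, 226 and 147 in NT. The groups were far apart (the lowest KE sample was 2.95 times the highest NT sample), and the means were 741 and 181, with coefficients of variation of 10.1% and 22.3% (n = 3 each). Trib3 was 4.12-fold higher (log2FC 2.04, SE 0.15; limma, adjusted p = 9.8e-07), and 1.30% of tested genes had a larger log2FC.

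Chac1 (ENSMUSG00000027313; chr2:119180757-119184866, plus strand) encodes an enzyme that breaks down glutathione. Normalized counts of Chac1 were 539, 663 and 608 in KE and 149, 119 and 115 in NT, so every KE sample was at least 3.63 times every NT sample. Group means were 603 ± 62.0 and 127 ± 18.5 (SD, n = 3 each). Of the 10 genes, Chac1 had the highest log2FC, 2.24 (SE 0.13; limma, adjusted p = 1.9e-07), or 4.72-fold, but its 95% interval (3.87- to 5.77-fold) overlapped those of Ddit3 (3.99 to 5.50) and Trib3 (3.28 to 5.18).

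Asns (ENSMUSG00000029752; chr6:7671667-7728461, minus strand) encodes asparagine synthetase, which ATF4 raises when amino acids run short. The KE samples had 3234, 3055 and 3334 normalized counts of Asns, and the NT samples had 1947, 1792 and 1851. All KE samples were at least 1.57 times all NT samples. With means of 3207 ± 142 and 1863 ± 78.5 (SD, n = 3 each), Asns was 1.72-fold higher (log2FC 0.78, SE 0.06; limma, adjusted p = 1.6e-06).

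Ddit4 (ENSMUSG00000020108; chr10:59785491-59788492, minus strand) encodes REDD1, which restrains the kinase complex mTORC1 through TSC2, and which hypoxia and glucocorticoids raise as well. Its normalized counts were 2773, 2948 and 2519 in KE and 2192, 2135 and 2279 in NT. The groups did not overlap but came close, since KE replicate 3 was 1.10 times NT replicate 3. Means were 2747 ± 216 and 2202 ± 72.9 (SD, n = 3 each), and Ddit4 was 1.24-fold higher (log2FC 0.32, SE 0.07; limma, adjusted p = 0.00266), the smallest rise of the 7.

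**Figure D2:**
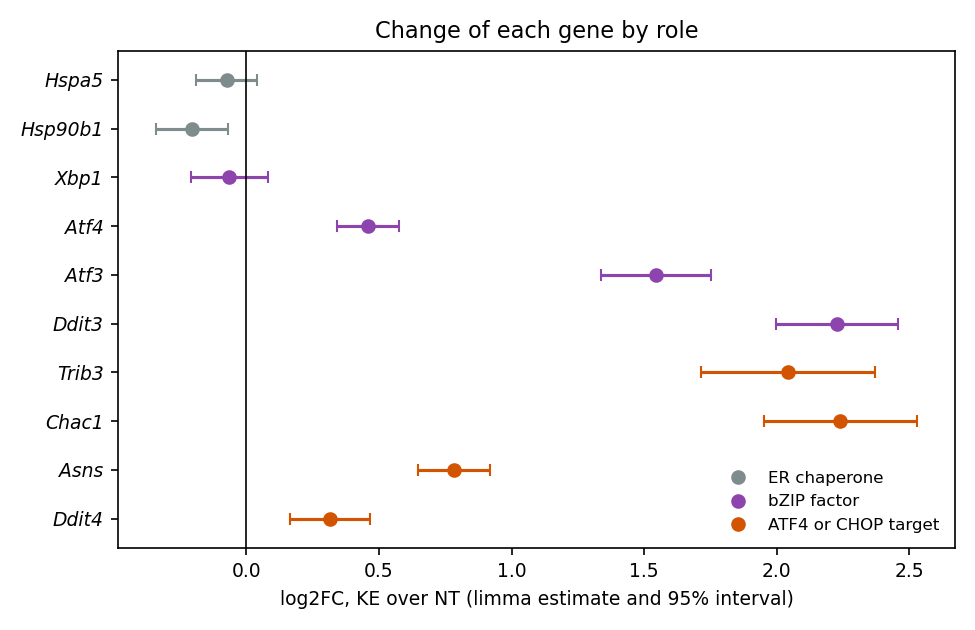
Log2FC of each gene, KE over NT (horizontal axis), as limma's estimate with its 95% interval, coloured by role. The intervals of Hspa5 and Xbp1 include 0, that of Hsp90b1 lies below 0, and the other 7 lie above 0, from Ddit4 at 0.32 to Chac1 at 2.24.

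Because each sample holds all of these mRNAs, ratios within a sample show how the balance between genes moved without any scaling between samples. The ratios are of normalized counts, not corrected for transcript length, so only their change between groups can be read. They use the same counts as the genes above and are not separate evidence. In KE there were 11.3, 12.2 and 11.7 Ddit3 counts per 100 Hspa5 counts, and in NT there were 2.36, 2.84 and 1.99. This 4.94-fold change largely repeats the 4.69-fold rise of Ddit3, since Hspa5 was not called. Ddit3 per 100 Atf4 was 25.25, 24.96 and 24.49 in KE and 7.02, 8.58 and 6.44 in NT, so Ddit3 rose 3.41-fold relative to the mRNA of its regulator. Trib3 per Atf4 was 3.01-fold higher, Atf4 per Hspa5 1.45-fold higher, and Asns per Atf4 1.25-fold higher, all without overlap between groups. Hsp90b1 per Hspa5 was at 0.914-fold in KE, also without overlap.

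Of the 8 ratios computed, 2 showed no such shift. Chac1 per 100 Ddit3 was 23.8, 28.0 and 26.3 in KE and 30.7, 20.3 and 27.2 in NT (1.01-fold). Xbp1 per 100 Hspa5 was 5.90, 6.24 and 5.81 in KE and 6.32, 5.90 and 5.62 in NT (1.01-fold). Each of these 2 had p = 0.9 in a two-sided exact permutation test, and each of the other 6 had p = 0.1, which is the smallest that 3 against 3 samples can give (0.133 after Benjamini-Hochberg adjustment over the 8 ratios), so the design could not reach 0.05 for any of them.

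**Figure D3:**
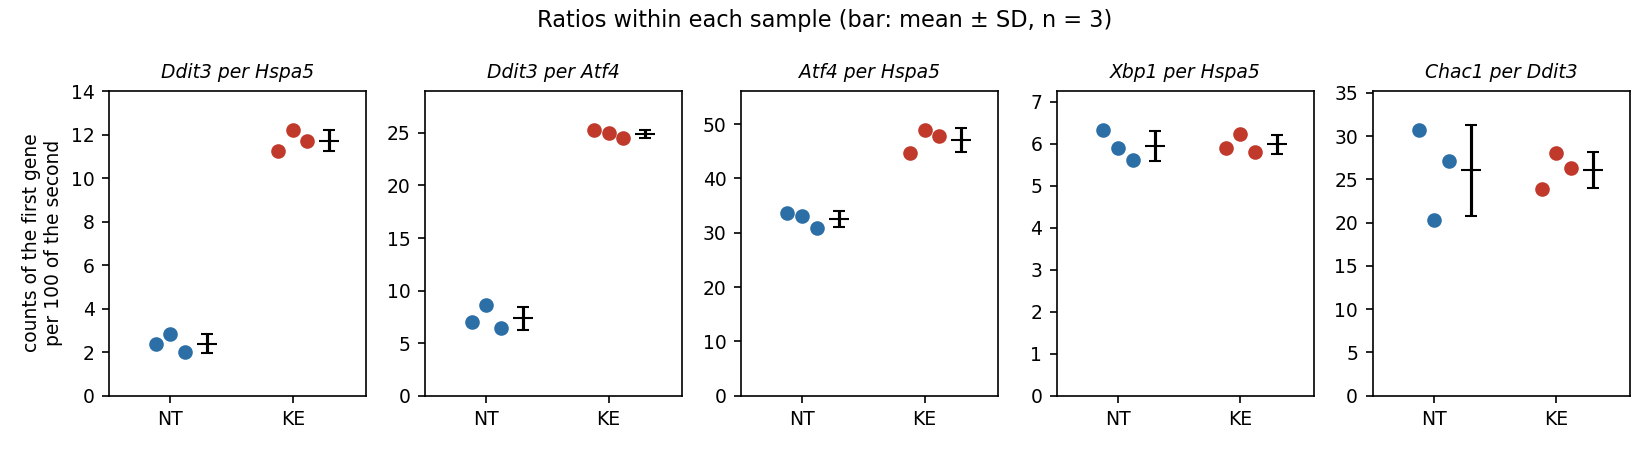
Ratios of normalized counts within each sample (vertical axes, counts of the first gene per 100 of the second, each from 0) in NT (blue) and KE (red), with mean and SD as black bars (n = 3). Ddit3 per Hspa5, Ddit3 per Atf4 and Atf4 per Hspa5 are higher in every KE sample, whereas Xbp1 per Hspa5 and Chac1 per Ddit3 overlap.

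Around these 10 genes, 115 further genes in 11 lists of the same pathways were tested, of which 54 (47.0%) were higher in KE, 19 (16.5%) were lower and 42 were not called. Over all tested genes, 25.3% were higher, 26.0% were lower and 51.3% were called in either direction, and the counts of each list below are to be read beside these shares. The median log2FC was 0.14 over the 115 and 0.00 over all tested genes. These lists rest on general knowledge of the pathways, and they were chosen with earlier results of these data known.

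Among the 6 ER stress sensors and the proteases that cleave ATF6, 3 were higher and 1 was lower. Ern1, which encodes IRE1, had means of 886 ± 43.9 in KE and 697 ± 16.3 in NT (log2FC 0.34, limma, adjusted p = 0.00246), Atf6b was at log2FC 0.23 and Atf6 at 0.21. The call of Atf6 was lost in 4 of 14 alternatives, with log2FC down to 0.15. Mbtps2, the site-2 protease gene, fell by 0.36, while Mbtps1, the site-1 protease gene, was at -0.15 and was not called. Eif2ak3, the gene of PERK, had means of 1067 ± 64.8 and 1102 ± 78.4 and was not called (log2FC -0.05, limma, adjusted p = 0.653).

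Of the 4 eIF2alpha kinase genes, which include Eif2ak3, only Eif2ak2 was called. It encodes PKR, the kinase activated by double-stranded RNA and itself raised by interferon, and its means were 9490 ± 527 and 4781 ± 414 (SD, n = 3 each; log2FC 0.99, limma, adjusted p = 9.2e-07). Eif2ak1, the gene of HRI, was at 0.12, and Eif2ak4, the gene of GCN2, at -0.10, neither called.

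Downstream of the kinases, 2 of 12 genes of eIF2, eIF2B and the eIF2alpha phosphatase were higher and 6 were lower (median log2FC -0.16). The exception in size was Ppp1r15a, which encodes GADD34, the stress-induced subunit that directs dephosphorylation of eIF2alpha. Its means were 3658 ± 248 in KE and 782 ± 45.2 in NT (SD, n = 3 each; log2FC 2.22, limma, adjusted p = 5.3e-09), beside 2.23 for Ddit3. Eif2b2, an eIF2B subunit, rose by 0.51. The largest falls were in Ppp1cc (-0.45), Eif2b1 (-0.39) and Eif2s1, the gene of eIF2alpha itself (-0.31).

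Other ER chaperones and folding enzymes lay, like Hspa5, near 0. Of 20 tested, 4 were higher, 3 were lower and 13 were not called, with a median log2FC of -0.06. Dnajb9, an ER J-domain cochaperone that represses IRE1, stood apart with means of 2549 ± 61.4 and 1050 ± 98.3 (SD, n = 3 each; log2FC 1.28, limma, adjusted p = 1.7e-07). The oxidase gene Ero1a (0.34) and Selenok (0.24) were the next highest, and Sdf2l1 (-0.55), Fkbp2 (-0.45) and Calr, the gene of calreticulin (-0.16), were the lowest of those called. The calls of Ero1a and Calr were lost in some alternatives, and 2 of the 4 rises and 2 of the 3 falls held in all 14.

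Of 15 genes of ER-associated degradation and translocation, 6 were higher and 2 lower (median 0.04). Derl3 was at a log2FC of 1.88 at low levels (means of 17.9 ± 1.38 and 4.27 ± 1.62), and since it passed the filter on low values only through KE, the group where it is high, its place among the 6 is no support for a rise of the list. Selenos (0.48) and Os9 (0.48) were the next highest, and the 2 that fell were Edem1 (-0.49) and Edem3 (-0.26), lectin-like proteins that direct misfolded glycoproteins to degradation.

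Several of the other lists had higher medians. Of 9 stress bZIP factors and partners, 8 were higher, 0 were lower and 1 was not called (median log2FC 0.60). This list is not confined to the ATF4 side. It also holds Nfe2l1 (0.69), Creb3 (0.40), Nfe2l2 (0.38) and Creb3l1 (0.24), all higher, and Creb3l2 (0.12), not called. Nupr1, a small stress-induced chromatin protein, had means of 2736 ± 272 and 491 ± 66.7 (log2FC 2.48, limma, adjusted p = 2.3e-08). Atf5, a close relative of Atf4, rose by 1.27, and Cebpg, the gene of a C/EBP partner of ATF4, by 0.74.

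The 9 ATF4-regulated amino acid transporter genes were all called, 6 (66.7%) higher and 3 (33.3%) lower, beside 25.3% and 26.0% of all tested genes (median 0.55). The largest rises were in Slc7a3, a cationic amino acid transporter (2.54, means of 241 ± 19.4 and 41.1 ± 8.59), in Slc7a11, the cystine–glutamate exchanger xCT (1.82, means of 20348 ± 2307 and 5764 ± 383), and in the glycine transporter Slc6a9 (1.69). Slc1a5 (-0.61), Slc38a2 (-0.61) and Slc7a1 (-0.21) were lower, the last with its call lost in 4 of 14 alternatives.

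In serine, one-carbon and proline synthesis, 5 of 9 genes were higher and 3 lower (median 0.20). Cth, which makes cysteine from cystathionine (0.99), the mitochondrial folate enzyme gene Aldh1l2 (0.78) and Psph (0.67) rose, whereas Psat1 (-0.61), Shmt2 (-0.29) and Phgdh (-0.26) fell. Psat1 and Psph encode successive steps of serine synthesis, and they moved in opposite directions, from 10321 ± 340.5 to 6743 ± 143 for Psat1 and from 1018 ± 47.6 to 1630 ± 178 for Psph (SD, n = 3 each, NT to KE).

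Cytosolic aminoacyl-tRNA synthetase genes were higher in 6 of 12 cases and lower in 0 (median 0.23), with Wars (0.70), Aars (0.57) and Sars (0.50) highest. In the list of CHOP and ATF4 targets in apoptosis and signalling, 7 of 9 tested genes were higher and 0 were lower (median 0.78). Its largest rises were in the secreted stress hormone gene Gdf15 (1.54, at means of 186 ± 33.9 and 63.5 ± 10.3), Vldlr (1.20) and the death receptor gene Tnfrsf10b (0.92), and Fgf21 was below the filter at no more than 1.04 normalized counts in any sample. Beside Ddit4, 6 of 11 genes of the REDD1 and TSC–mTORC1 branch were higher and 1 lower (median 0.15), with Akt1s1 (0.56), Sesn3 (0.49) and Eif4ebp1 (0.47) highest and Sesn1 (-0.22) the one that fell. The fall of Sesn1 was not called without NT replicate 1 (log2FC -0.21, limma, adjusted p = 0.0504).

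**Figure D4:**
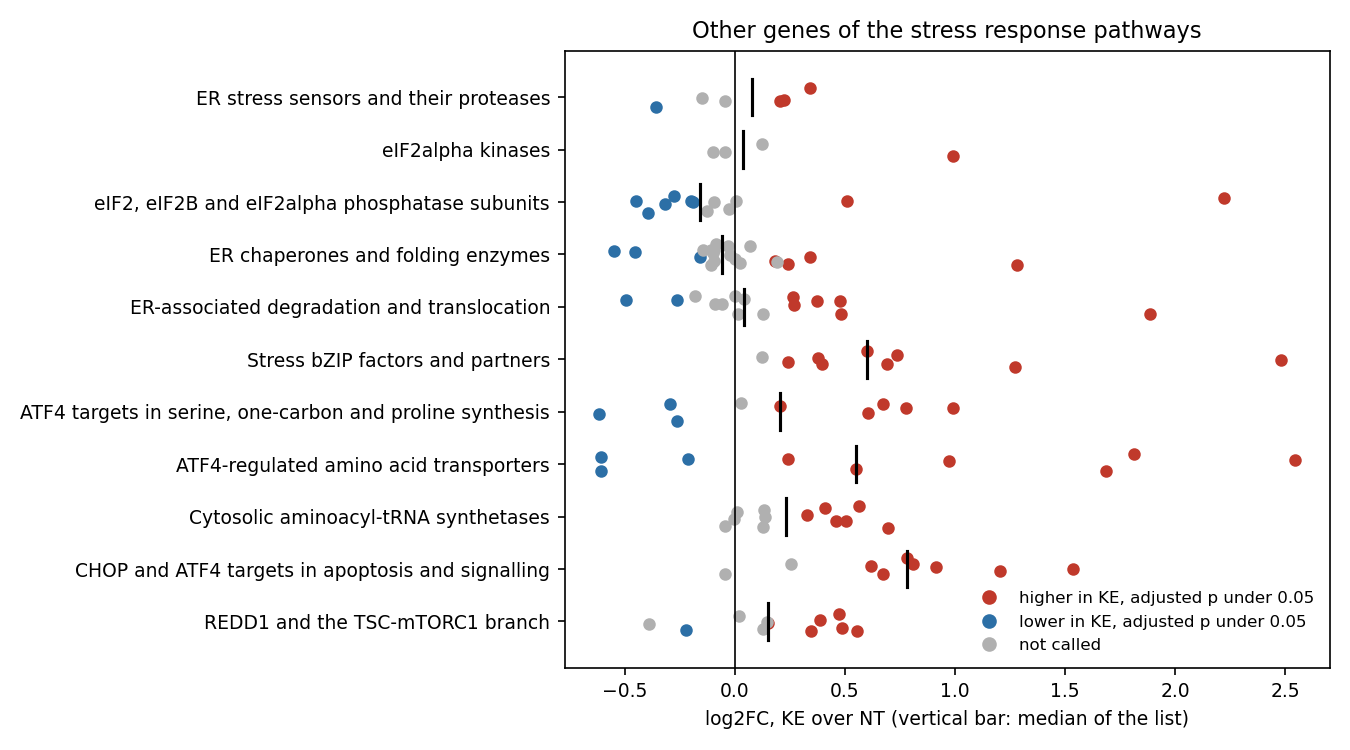
Log2FC, KE over NT (horizontal axis), of every tested gene in the 11 pathway lists, with red points higher and blue points lower at adjusted p under 0.05, grey points not called and a vertical bar at each list's median. Medians lie near 0 for ER sensors, chaperones, degradation and eIF2alpha kinases, and at -0.16 for eIF2, eIF2B and phosphatase subunits. They lie at 0.15 to 0.23 for the REDD1 branch, serine, one-carbon and proline synthesis, and tRNA synthetases. The highest medians, at 0.55 to 0.78, are those of bZIP partners, amino acid transporters and the apoptosis and signalling targets.

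The sequence elements of the 10 genes were also sought in all tested genes, with windows of the same length at the starts of Gencode canonical transcripts in GRCm39 (15239 of 15280 tested genes had one). ERSE was in 0.06% of the windows of all 78287 annotated genes and in 17 tested ones, of which 3 were higher, 5 were lower and 9 were not called, with a median log2FC of -0.07, the value of Hspa5. In the list of ER chaperones, 6 of 20 genes held it: Calr (-0.16), Canx (-0.11), Dnajc3 (-0.09), Pdia6 (-0.09), Ero1b (-0.02) and Creld2 (0.03), of which Calr was called. In the list of ER-associated degradation, Derl3 (1.88, which passed the filter only through KE) and Syvn1 (0.13, not called) held it. CARE, a shorter string, was in 5.27% of all windows and in 403 tested genes, with 28.0% higher, 22.8% lower and a median of 0.07, beside 25.3% and 26.1% of all tested genes with a window. Atf3 (log2FC 1.55), Chac1 (2.24) and Ddit3 (2.23) were the 3 of the 10 genes with CARE in this window. In the pathway lists 11 genes held it, of which Slc7a11 (1.82), Vldlr (1.20), Pycr1 (0.61), Aars (0.57), Cars (0.41) and Herpud1 (0.37) were called higher. Ppp1r15b (-0.28) and Eif2s3x (-0.19) were called lower, and Tars (0.13), Gars (0.01) and Iars (-0.05) were not called. The cAMP response element was in 1.25% of all windows and in 452 tested genes (26.1% higher, 26.8% lower, median 0.00). In the pathway lists, Ppp1r15a (2.22) and Pmaip1 (0.62) held it, both called higher.

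**Figure D5:**
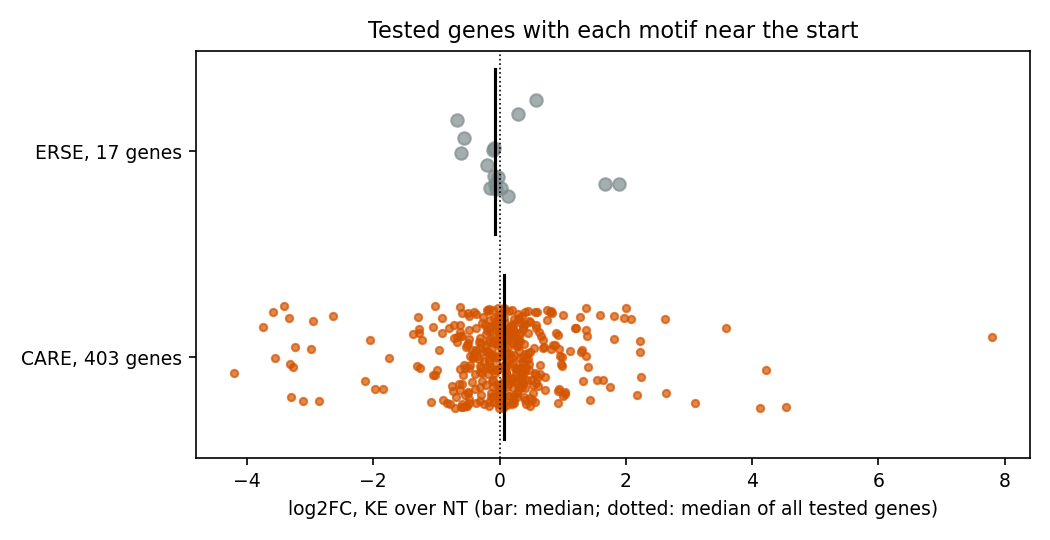
Log2FC, KE over NT (horizontal axis), of tested genes whose window of 250 bases before to 50 bases after the Gencode start holds ERSE (grey, 17 genes) or CARE (orange, 403 genes), with points spread vertically for legibility, a bar at each median and a dotted line at the median of all tested genes. Both medians, -0.07 and 0.07, lie close to the dotted line, and the CARE genes spread widely on both sides.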

How the data were processed

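RNA from 3 KE and 3 NT samples was made into stranded poly(A) libraries and sequenced. Per the labels and the study's methods, the authors trimmed reads with Trim Galore, aligned them with STAR, counted genes with Salmon and divided the counts by DESeq2 size factors, and the deposited values are this normalized signal per gene and sample. The methods name GRCm39 with Gencode models and the processing notes another species' build, but the identifiers are those of mouse. The methods also mention batches without naming them, so none was modelled. Scaling removes depth and assumes that most genes do not change. Taking a sample's most frequent low value as 1 read, 74.9 to 77.7% of its low values came within 0.1 of whole reads. Reads were therefore not recovered, no count test was run, counting error is unknown, and the depths given are approximate.

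KE and NT were compared on the log2(normalized count + 1) scale by limma 3.58.1 (R 4.3.3). The model held the group alone, with a variance trend, and took the 15280 genes whose mean was 10 or more. Tests were two-sided, Benjamini-Hochberg adjustment covered all these genes, and a gene was called at an adjusted p under 0.05. A fold is 2 to the power of the log2FC, which understates changes of low genes. Simulated data were made in which 200 of 15280 genes were changed. Of those with an absolute log2FC of 0.5, 1 and 2, 54.5%, 74.6% and 88.1% were recovered, and 5 of 15080 unchanged genes were called. In the real data 51.3% of tested genes were called, which changes the p-value that the adjustment lets through. These rates therefore need not hold for the real data. The 10 genes and the lists (11 pathway lists and 5 of cell type markers: astrocytes, microglia and macrophages, oligodendrocyte lineage, neurons, vascular cells and fibroblasts) were chosen with earlier results of these data known. Named are the 10 genes, all ER sensors and eIF2alpha kinases, up to 3 called genes with the largest rise and up to 3 with the largest fall in each other pathway list, and of each marker list the gene with the highest mean and any near 0. Genes given for an overlap, a promoter element or a place in the bZIP list outside the ATF4 side are named for that reason. Ratios were compared with exact permutation tests.

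Loci are from Gencode vM39 on GRCm39. Promoter windows are from RefSeq (GRCm38.p6), located in GRCm39 by exact match with Python 3.11.15. The closing section gives 14 alternatives: 2 pseudocounts, 2 filters, 2 scalings, no variance trend, the replicate number as a block, and each sample left out. Samples with the same replicate number had correlated deviations of only 0.0589, 0.0664 and 0.0651, so numbers were not taken to pair samples.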

Additional observations from a re-analysis of the deposited data

How the results depend on the processing

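The 7 genes higher in KE kept their direction and their call in all 14 alternatives, and all values of the 10 genes kept their sign. The genes of the 10 that were lower in KE numbered 1 as reported, 2 under quantile normalization and 0 with no variance trend, and 0 to 1 when 1 sample was left out. The changes lie in the ER chaperones. Hspa5 had a log2FC of -0.17 under quantile normalization and passed the threshold (limma, adjusted p = 0.0122, over alternatives 0.0122 to 0.469). Hsp90b1 had -0.20 with no variance trend (adjusted p = 0.0529, over alternatives 0.00265 to 0.0617) and -0.23 to -0.16 when 1 sample was left out, with the call lost without KE replicate 2 and without NT replicate 1. The cause was not tested. In the pathway lists, 46 of 54 rises and 16 of 19 falls held in all 14.

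A replicate block gave 8046 called genes in place of 7844, and under it no call among the 10 genes changed (Hspa5 adjusted p = 0.203, Hsp90b1 0.00786). Each sample's deviations correlated best with those of its own number, as a hint from the data only. The settings moved the median log2FC of all genes to at most 0.03.

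With 3 samples a group, the difference in Xbp1 was not detectable beyond the spread, and that in Hspa5 passed the threshold under 1 scaling only. Transfection, BRAF K499E and the shifts in cell type markers cannot be told apart. These shifts are higher astrocyte sums, lower microglial and oligodendrocyte lineage sums, and a neuron sum that was lower through Map2 while Tubb3 was higher. Splicing of Xbp1 and translation of Atf4 were not measured.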
